A study of Mus musculus with 2 samples.

Results

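The genes described here encode cyclins, cyclin-dependent kinases (CDKs) and the E2F factors with their closest partners and regulators. The rule that picks them reads gene symbols and no signal, although the family itself was chosen with earlier results of these data known. It took probe sets carrying a single symbol that begins with Ccn and a letter, or that names a Cdk or Cdkl gene with a number, an E2f gene, Cdc25a to Cdc25c, Rbl1, Rbl2, Tfdp1, Tfdp2 or Wee1. It found 159 of 45037 non-control probe sets, which stand for 66 of 18193 genes. A few genes of other function share the prefix, such as Ccnb1ip1 and Ccndbp1, and were kept as the rule gave them. Ccnb1, the main mitotic cyclin gene, was not analysed here.

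RNA of flow-sorted lung vascular cells was hybridised to 2 one-colour expression arrays, 1 from old and 1 from young C57BL/6J mice. Mice of both ages had the left lung lobe resected (pneumonectomy), and the cells came from the right lobes that were left. The sources used here do not give the ages in months, the interval between surgery and sort, the sorting markers or how many mice each array stands for, and unoperated mice were not analysed here. With 1 array per group no difference has a replicate check and none was tested.

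Signals are MAS5 values after both arrays were brought to a common scale, and every log2 ratio is old minus young. The floor, the higher of the median signals of the 2 arrays, was 73.7. Values below it have no order, so a gene above it on 1 array only has a fold against the floor, written as "at least". A gene was called higher on an array at 2-fold or more, a rule of size and not a test, and is represented by its brightest probe set. Because the arrays measure RNA of whole sorts, fewer cells of a type and less RNA per cell cannot be told apart. Signals of different genes come from different probes and are not compared with each other.

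Cyclins are proteins that bind and switch on CDKs, and their rise and fall orders the cell cycle. In G1, D-type cyclins with Cdk4 and Cdk6 phosphorylate the pocket proteins (Rb and its relatives p107 and p130), which frees E2F factors to switch on genes of S phase, cyclin E among them. Cyclins A and B with Cdk2 and Cdk1 then drive S phase, G2 and mitosis. A second branch of both families, including cyclins H, T, K, L and C with Cdk7, Cdk9, Cdk12, Cdk13 and Cdk8, acts on RNA polymerase II, and Cdk7 with cyclin H also activates the CDKs of the division cycle. Endothelial cells of the adult lung rarely divide, and enter the cycle when the remaining lobes grow after pneumonectomy.

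Late cell-cycle promoters are known to carry a cell cycle genes homology region (CHR) close to the start site, usually next to CCAAT boxes. Through the CHR, the MuvB complex holds these genes down in resting cells and raises them in dividing ones. The promoter table from RefSeq (build GRCm38.p6, 250 bases before to 50 after the start) held 51 of the 66 genes, and the first listed promoter was used for each. Ccna2 and Ccne2, both higher on the young array, had no promoter there and were not searched. CHR was searched as TTTGAA or TTCGAA, the CCAAT box as CCAAT, and an E2F site as TTTCCCGC, TTTGGCGC or GGCGGGAA, all on both strands. Shown are the 4 promoters with a CHR among genes higher on the young array, Cdk1 and Ccnb2 (which form the mitotic kinase), Ccnf and E2f8. Capitals mark CHR and CCAAT letters on either strand, 5′ to 3′ in the direction of the gene. The stretches are chr10:69352863-69353162 (minus strand) for Cdk1, chr9:70421505-70421804 (minus) for Ccnb2, chr17:24251360-24251659 (minus) for Ccnf and chr7:48881547-48881846 (minus) for E2f8.
Cdk1: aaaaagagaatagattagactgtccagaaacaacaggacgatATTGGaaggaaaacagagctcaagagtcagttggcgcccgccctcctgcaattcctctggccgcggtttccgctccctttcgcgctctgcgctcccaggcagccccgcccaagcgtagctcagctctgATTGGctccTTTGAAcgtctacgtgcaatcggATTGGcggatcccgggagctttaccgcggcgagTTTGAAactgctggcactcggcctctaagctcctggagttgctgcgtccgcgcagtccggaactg
Ccnb2: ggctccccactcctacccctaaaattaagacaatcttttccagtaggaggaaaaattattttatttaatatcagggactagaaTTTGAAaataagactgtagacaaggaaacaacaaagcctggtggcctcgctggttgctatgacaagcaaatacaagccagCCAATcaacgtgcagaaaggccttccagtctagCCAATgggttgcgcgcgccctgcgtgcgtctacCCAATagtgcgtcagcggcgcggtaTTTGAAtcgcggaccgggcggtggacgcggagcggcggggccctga
Ccnf: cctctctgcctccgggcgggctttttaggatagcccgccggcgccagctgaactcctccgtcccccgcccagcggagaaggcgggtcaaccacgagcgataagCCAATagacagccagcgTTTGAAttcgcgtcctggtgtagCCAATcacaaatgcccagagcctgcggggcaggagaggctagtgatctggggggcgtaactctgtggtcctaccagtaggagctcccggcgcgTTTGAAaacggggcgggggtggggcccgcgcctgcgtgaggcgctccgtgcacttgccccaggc
E2f8: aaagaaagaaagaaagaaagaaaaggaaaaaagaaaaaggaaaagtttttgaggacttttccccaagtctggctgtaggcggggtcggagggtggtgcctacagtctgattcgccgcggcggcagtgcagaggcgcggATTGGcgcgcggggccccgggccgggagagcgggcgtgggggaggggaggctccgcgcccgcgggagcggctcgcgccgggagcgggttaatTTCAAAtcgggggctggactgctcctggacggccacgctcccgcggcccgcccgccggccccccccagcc

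In these windows a CHR begins at -15 in Cdk1, at -14 in Ccnf, at -20 in E2f8 and at 5 in Ccnb2, counted from the start site. A second CHR lies farther upstream in Cdk1 (-71), Ccnf (-130) and Ccnb2 (-167). CCAAT boxes number 3 in Cdk1, 3 in Ccnb2, 2 in Ccnf and 1 in E2f8. A CHR beginning between 30 bases before and 10 after the start, a window chosen after these positions were seen, was held by 4 of 13 promoters of genes higher on the young array. It was held by 2 of 38 promoters of the other members (E2f3 and Cdc25b) and by 2.42% of the 27025 promoters of the table. Because that window was set around the young-side positions, the 4 of 13 is no test against the other shares. Anywhere in the full stretch, a CHR was found in 19.4% of all promoters and in 9 of the 51 (17.6%). A CCAAT box was found in 37.9% of all promoters and in 24 of the 51 (47.1%). One of the E2F sites was found in 3.31% and in 5 of the 51 (9.8%). A match describes letters only.

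Of the 66 genes, 15 had signal at least 2-fold higher on the young array and 3 on the old, 42 lay within 2-fold, and 6 were below the floor on both arrays. Among all 12105 measured genes, 11.3% were higher by this rule on the young and 16.0% on the old array. The 60 measured members had a median log2 ratio of -0.22, and all measured genes one of 0.03. Restricted to the 54 members above the floor on both arrays, 12 were past 2-fold toward the young array and 2 toward the old, where 10.6% and 11.7% of all such genes were. Of the 15 young-side genes, 2 were cyclin E genes, 4 belonged to S phase, G2 and mitosis, 5 to the E2F group and 4 to cyclins and kinases of other roles. None was a D-type cyclin gene, Cdk4, Cdk6 or a gene of the transcription branch.

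Markers of cell types differed between the arrays as well. All 10 pan-endothelial markers were above the floor on both arrays, with summed signals of 110643 on the old and 73006 on the young, and 3 were past 2-fold toward the old and 1 toward the young array. Old-side leukocyte markers were 9 of 10 (summed signals 15791 on the old array and 1915 on the young), and 6, Ptprc among them, were below the floor on the young. All 7 measured hepatocyte markers were higher on the old array (14783 and 416), as were all 5 measured fibroblast markers and 4 of 5 measured epithelial markers. Summed over all 6 listed genes each, with Pdgfra and Sftpc below the floor on both arrays, the signals were 22511 and 251 for fibroblast and 5608 and 170 for epithelial markers. Of 7 lymphatic endothelial markers 5 were higher on the young array (35086 and 64662), with Prox1 and Nts below the floor on the old. Most of the old sum came from Lyve1 (14901 and 16120) and Flt4 (18035 and 10262), both within 2-fold. Mmrn1 was 135-fold, Reln 37.6-fold and Pdpn 3.68-fold higher in the young sample, the first from an old signal of 74.6, just above the floor. Nts was at least 141-fold and Prox1 at least 93.4-fold higher there. As a sign of RNA quality, Actb had a 3′ to 5′ signal ratio of 1.32 in the old and 1.20 in the young sample, and Gapdh one of 0.718 and 0.806. The part of these differences in the cyclin, CDK and E2F values was not tested.

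**Figure D1:**
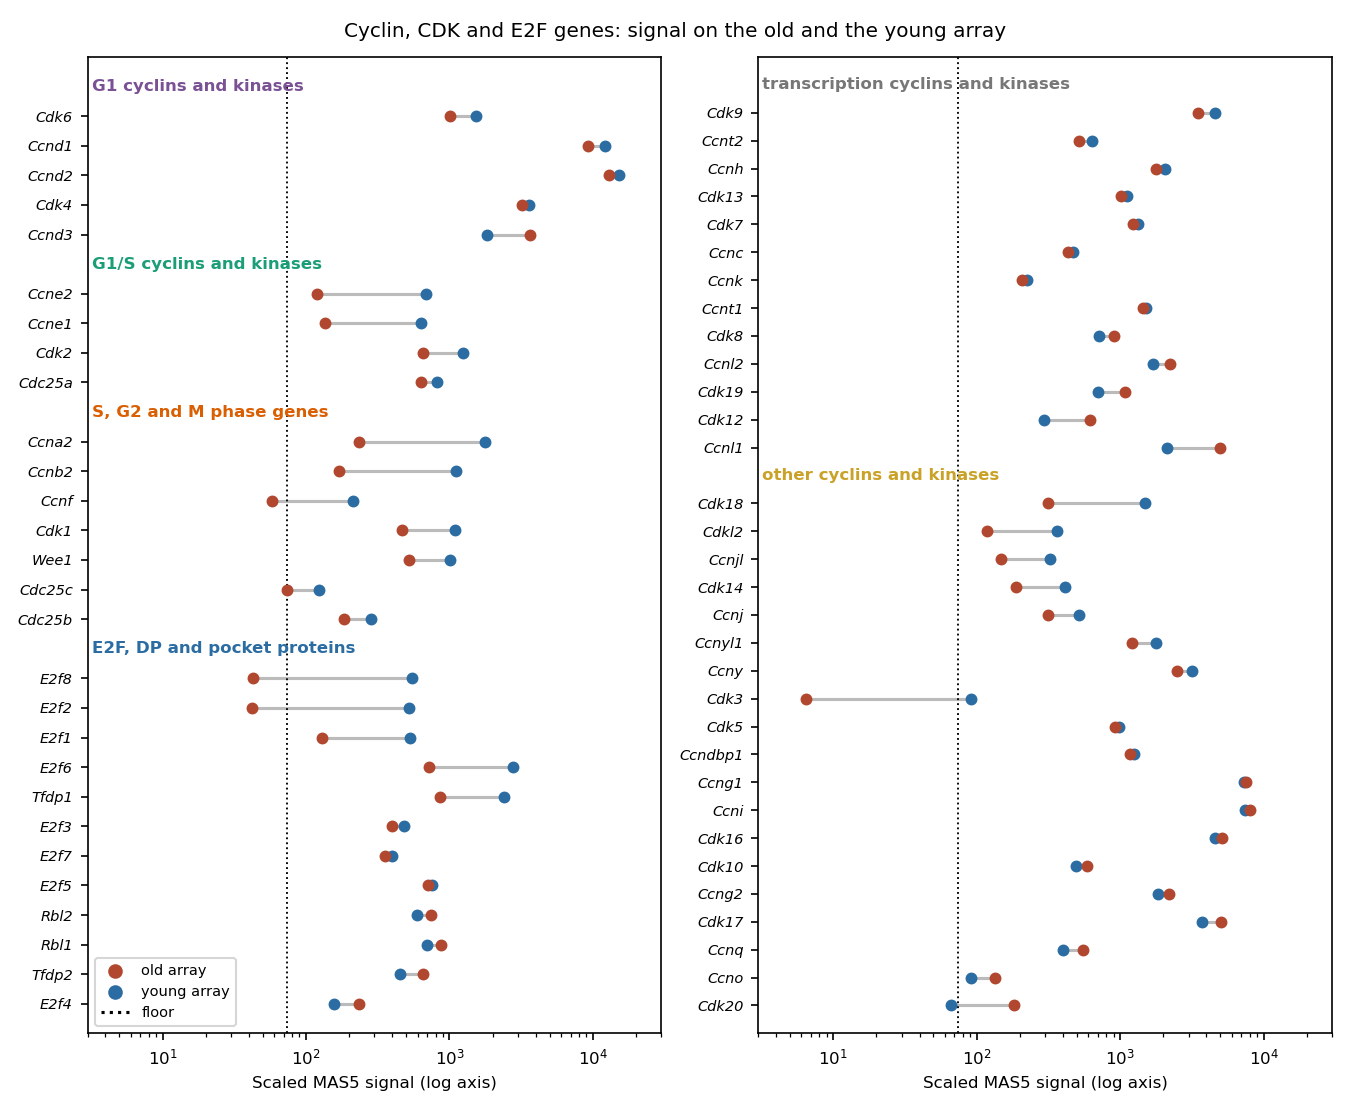
Scaled MAS5 signal (log axis) of the 60 measured genes on the old array (red) and the young array (blue), 1 array each, grouped by role and ordered within a role by log2 ratio; the dotted line is the floor of 73.7. Long bars with the blue point on the right are seen for Ccne1, Ccne2, Ccna2, Ccnb2, E2f1, E2f2, E2f6, E2f8 and Cdk18, and short bars for most transcription genes.

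Genes of G1 were all within 2-fold in their brightest probe sets. Ccnd1, the cyclin D1 gene that mitogens induce, had signals of 9186 on the old array and 12227 on the young (log2 ratio -0.41). Ccnd2, for cyclin D2, had 12998 and 15211 (-0.23). Both were far above the floor on both arrays and somewhat higher on the young. Ccnd3, for cyclin D3, ran the other way with 3623 and 1834 (0.98), just under the 2-fold line. The kinase partners differed little, with Cdk4 at 3202 and 3611 (-0.17) and Cdk6 at 1001 and 1536 (-0.62).

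For Ccnd1 and Ccnd2 the other probe sets gave larger differences. The 3 probe sets of Ccnd1 ran from -0.41 to -1.47, the last one with signals of 2639 on the old array and 7290 on the young. The 7 probe sets of Ccnd2 ran from -0.23 to -1.80, and 2 of them were past 2-fold, the dimmest with 542 and 1887. All 10 probe sets of both genes were higher on the young array, and in each gene the brightest gave the smallest difference. Ccnd3 had only 1 probe set above the floor, so its direction rests on that.

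Both cyclin E genes, which carry cells from G1 into S phase, were higher on the young array. Ccne1 read 135 on the old array and 637 on the young, 4.72-fold higher on the young. Its second probe set was below the floor on the old array and read 400 on the young. Ccne2 had 119 and 689, a 5.77-fold difference from a single probe set. Their kinase Cdk2 had 654 and 1245 (-0.93), just under 2-fold. Cdc25a, a phosphatase that activates it, was nearer to equality with 636 and 817 (-0.36), and its 2 measured probe sets had opposite signs.

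The cyclins of S phase and mitosis showed the largest ratios among members measured on both arrays. Ccna2, for cyclin A2, read 235 on the old array and 1772 on the young, 7.55-fold higher on the young, and its second probe set had 273 and 1087 (-1.99). Ccnb2, for cyclin B2, had 170 and 1119, a 6.57-fold difference. Among all measured genes, 1.44% had a log2 ratio as low as that of Ccna2 and 1.70% as low as that of Ccnb2. Cdk1, the kinase that both activate, had 468 and 1087, 2.32-fold higher on the young array. In the probe sets used, the kinase differed less than its cyclins. The log2 ratio of Ccna2 minus that of Cdk1 was -1.70, and Ccnb2 minus Cdk1 gave -1.50. The same held for the cyclin E genes, where Ccne1 minus Cdk2 gave -1.31 and Ccne2 minus Cdk2 gave -1.60. The second Ccna2 probe set (-1.99) lay nearer to Cdk1, and the second of Ccne1 (-2.44 against the floor) farther from Cdk2. Ccnb2, Ccne2, Cdk1 and Cdk2 each rest on 1 measured probe set.

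The other regulators of mitotic entry lay on the same side. Ccnf, which encodes an F-box protein that marks substrates for destruction in G2, was at 57.5 on the old array, below the floor, and at 212 on the young, at least 2.87-fold higher. Wee1, the kinase that holds Cdk1 inactive, had 524 and 1003 (-0.94). Cdc25b, a phosphatase that opposes it, had 185 and 282 (-0.61). Cdc25c, the related mitotic phosphatase, had 73.3 and 123, at least 1.67-fold higher on the young. All 7 measured genes of S phase, G2 and mitosis had negative ratios (median -1.22) and 4 were past 2-fold. Among all 12105 measured genes, 5783 had negative ratios and 11.3% were past 2-fold toward the young array. Ccna1 and Ccnb3, cyclin genes of the germ line, were below the floor on both arrays.

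**Figure D2:**
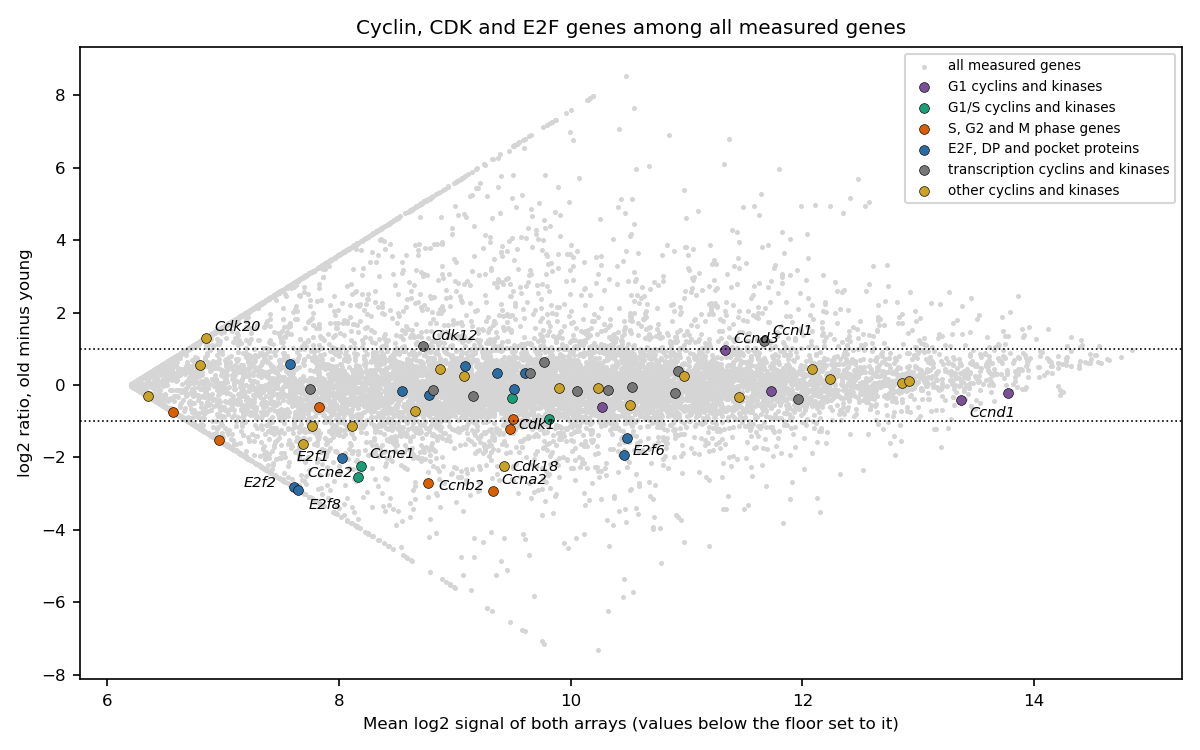
Log2 ratio (old minus young) against mean log2 signal of both arrays for all 12105 measured genes (grey) and the 60 measured members, coloured by role; dotted lines mark 2-fold. Points on the slanted edges are genes at the floor on 1 array, and the lowest members, Ccna2, E2f8, E2f2, Ccnb2 and Ccne2, lie between -2.92 and -2.53.

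Among the E2F genes, those for E2F1, E2F2, E2F6 and E2F8 were higher on the young array. E2f1, an activator of S phase genes, read 129 on the old array and 528 on the young, a 4.08-fold difference. Its second measured probe set gave a smaller one, with 168 and 291 (-0.79). E2f2, also an activator, was at 41.9 on the old array, below the floor, and at 519 on the young, at least 7.04-fold higher, and its second probe set ran the same way with 20.1 and 281. E2f3, the remaining activator, had 399 and 485 (-0.28), and its dimmer probe set had 106 and 99.5 (0.09). The activators therefore did not all lie past 2-fold.

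The repressor E2F genes split as well. E2f8, an atypical repressor that is itself an E2F target, was at 43.0 on the old array and 547 on the young, at least 7.42-fold higher on the young. E2f7, its closest relative, had 354 and 395 (-0.16), from 1 probe set. E2f6, which represses without pocket proteins, had 725 and 2755, 3.80-fold higher on the young, while its dimmer probe set had 160 and 298 (-0.90). E2f4 and E2f5, which act with the pocket proteins in resting cells, had 235 and 156 (0.59) and 703 and 759 (-0.11). Another probe set of E2f5 had 586 and 874 (-0.58). Of the 8 E2F genes, 4 were past 2-fold toward the young array, where 11.3% of all genes were. In the probe sets used, only E2f4 was higher on the old array, within 2-fold.

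E2F factors bind DNA as pairs with a DP protein. Tfdp1, the DP1 gene, read 865 on the old array and 2388 on the young, 2.76-fold higher on the young. Tfdp2, the DP2 gene, had 653 and 454 (0.52), but its 3 measured probe sets ran from -0.50 to 1.03 and set no direction. The pocket protein genes Rbl1 (p107) with 876 and 693 (0.34) and Rbl2 (p130) with 738 and 591 (0.32) were slightly higher on the old array. All 12 genes of this group were measured, 5 were higher on the young and 0 on the old array, and their median was -0.22. The shares over all genes were 11.3% on the young and 16.0% on the old side.

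The cyclins and kinases that act on transcription had 11 of 13 members within 2-fold, 2 higher on the old array and 0 on the young (median -0.12). The shares over all genes were 72.7%, 16.0% and 11.3%, so the old-side count was near the background. Ccnl1, for a cyclin tied to splicing, read 4974 on the old array and 2135 on the young, 2.33-fold higher on the old. Its relative Ccnl2 had 2223 and 1707 (0.38), with 3 probe sets between 0.33 and 0.43. Cdk12, a kinase of the polymerase tail, had 616 and 293 (1.07) in its brightest probe set. The other 4 measured probe sets of Cdk12 ran from -0.50 to 0.14, and the mean over all 5 was 0.03, so that call rests on 1 probe set.

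Among the rest of this branch, the kinases and their cyclins were within 2-fold in the probe sets used. Cdk9, the elongation kinase, had 3482 and 4561 (-0.39), and its cyclins Ccnt1 and Ccnt2 had log2 ratios of -0.06 and -0.31. A dimmer probe set of Ccnt1 gave -1.13, with 273 and 597. Cdk7 and Ccnh, the CDK-activating pair, had ratios of -0.13 and -0.21. The Mediator kinase genes Cdk8 and Cdk19 were at 0.35 and 0.63 and their cyclin gene Ccnc at -0.13. Ccnk, the cyclin gene of Cdk12 and Cdk13, was at -0.12. Cdk13 had -0.16 in its brightest probe set and 1.55 in another, the widest gap of any member (1.71).

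The remaining 23 genes encode cyclins and kinases with other or less known roles, and 19 were measured. Cdk18, a kinase of the PCTAIRE group, read 316 on the old array and 1500 on the young, 4.75-fold higher on the young. Its relatives Cdk16 and Cdk17 had log2 ratios of 0.16 and 0.44, on the other side of 0. Cdkl2, a CDK-like kinase gene, had 118 and 362 (3.06-fold), with a second probe set at -0.25. Cdk14, whose kinase pairs with cyclin Y in Wnt signalling, had 188 and 410 (2.18-fold), while Ccny was at -0.34 and Ccnyl1 at -0.56. Ccnjl, little studied, had 147 and 323 (2.19-fold). Neither Cdk14 nor Ccnjl was past 2-fold with an offset in place of the floor. Cdk20 was the one gene of this group on the old side, with 182 on the old array and 65.9, below the floor, on the young, at least 2.48-fold higher. Its only probe set is a shared-sequence one (_s_at), so Cdk20 was not measured when such probe sets were left out.

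The other measured genes of this group were within 2-fold. Ccng1, a p53 target, had 7556 and 7323 (0.05), and Ccni had 8019 and 7483 (0.10). Ccng2, associated with arrest of the cycle, had 2202 and 1840 (0.26). Cdk5, a kinase best known from neurons, had 925 and 984 (-0.09), and Cdk10 had 590 and 495 (0.25). Ccnq, the cyclin that pairs with Cdk10, had 548 and 400 (0.45), and Ccno, known from multiciliated cells, had 135 and 92.1 (0.55). Ccnj had 315 and 521 (-0.73). Cdk3 was measured on the young array only, at 91.2. Ccnb1ip1, Cdkl1, Cdkl3 and Cdkl4 were below the floor on both.

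Probe sets of the same gene were the only repeated measurement, and they describe the probes and not the mice. Over the 30 members with several probe sets that passed the floor on each array, the pooled SD of the log2 ratio within a gene was 0.48, against 0.42 over 4514 genes. The sign was the same in all probe sets for 21 of the 30. Of the 15 genes higher on the young array, 8 had at least 2 measured probe sets, and in 4 of them (Ccna2, Ccne1, E2f2 and Ccnjl) every one was past 2-fold. In Ccnf, E2f1, E2f6 and Cdkl2 the other probe set had the same sign and was under 2-fold. The other 7 rest on 1 measured probe set each.

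**Figure D3:**
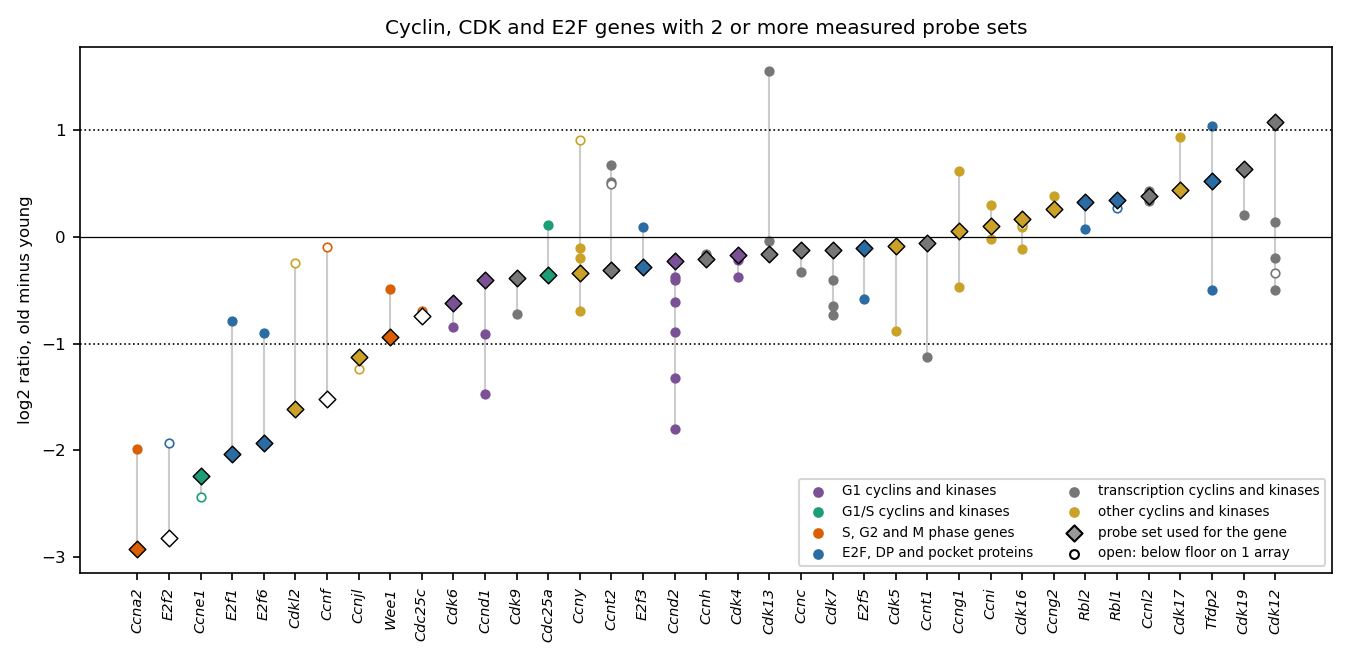
Log2 ratio (old minus young) of every measured probe set for the 37 members that have at least 2; diamonds are the probe set used for the gene, circles the others, open symbols are below the floor on 1 array, and dotted lines mark 2-fold. Ccna2, E2f2, Ccne1 and Ccnjl lie wholly below -1, Ccnd1 and Ccnd2 spread downward from near 0, and Cdk13, Tfdp2 and Cdk12 span both signs.

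Other genes of the pathway were taken from lists that the rule did not use. Of 18 G2/M genes, 17 were higher on the young array and 1 on the old (median -2.41), where 11.3% and 16.0% of all genes were. They included Kif20a (7.44-fold), Ube2c (7.20-fold), Hmmr (7.13-fold) and Kif11 (6.72-fold), genes of the spindle, of cytokinesis and of cyclin destruction. The old signal of Kif11, 77.7, lay just above the floor. Cenpa, for the centromeric histone, was the exception with 1624 on the old array and 714 on the young. Of 18 measured E2F target genes of the G1/S transition, 6 were higher on the young and 0 on the old (median -0.70). The ribonucleotide reductase gene Rrm2 had 492 and 2382, Uhrf1 173 and 825, and the replication licensing gene Cdc6 was below the floor on the old array and at 297 on the young.

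The list of CDK regulators and cyclin degradation, which also holds Myc and ubiquitin ligase genes, had 7 of 16 members higher on the young and 0 on the old array (median -0.63). Of all genes, 11.3% were higher on the young and 16.0% on the old array. Cks1b, a CDK-binding subunit, had 1943 and 7477, and Cks2 had 1351 and 3865. The ubiquitin ligase adaptor gene Dtl had 78.4 and 302, and Fbxo5, an inhibitor of cyclin destruction, 176 and 554. The 7 measured genes of the Rb and MuvB list were within 2-fold (median -0.08), as 72.7% of all genes were, with Lin9 at -0.84, Lin37 at -0.52, Rb1 at 0.50 and Rbbp4 at 0.25. The 6 measured partners of the transcription kinases were within 2-fold as well (median -0.07), from Mepce at -0.19 to Med12 at 0.32.

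Of the 8 CDK inhibitors, 2 were higher on each array (median 0.30), where 16.0% of all genes were on the old and 11.3% on the young. Counts this small are near the background. Cdkn1c, for p57, read 3151 on the old array and 129 on the young, 24.3-fold higher on the old. Cdkn2b, for p15, had 1410 and 623 (2.26-fold). On the young side, Cdkn2a, for p16 and p19Arf, had 1059 and 6096, 5.76-fold higher. Cdkn3, a phosphatase gene that is itself a mitotic gene, was below the floor on the old array and at 382 on the young, at least 5.18-fold higher. Cdkn1a, for p21, differed little with 6926 and 6643 (0.06).

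**Figure D4:**
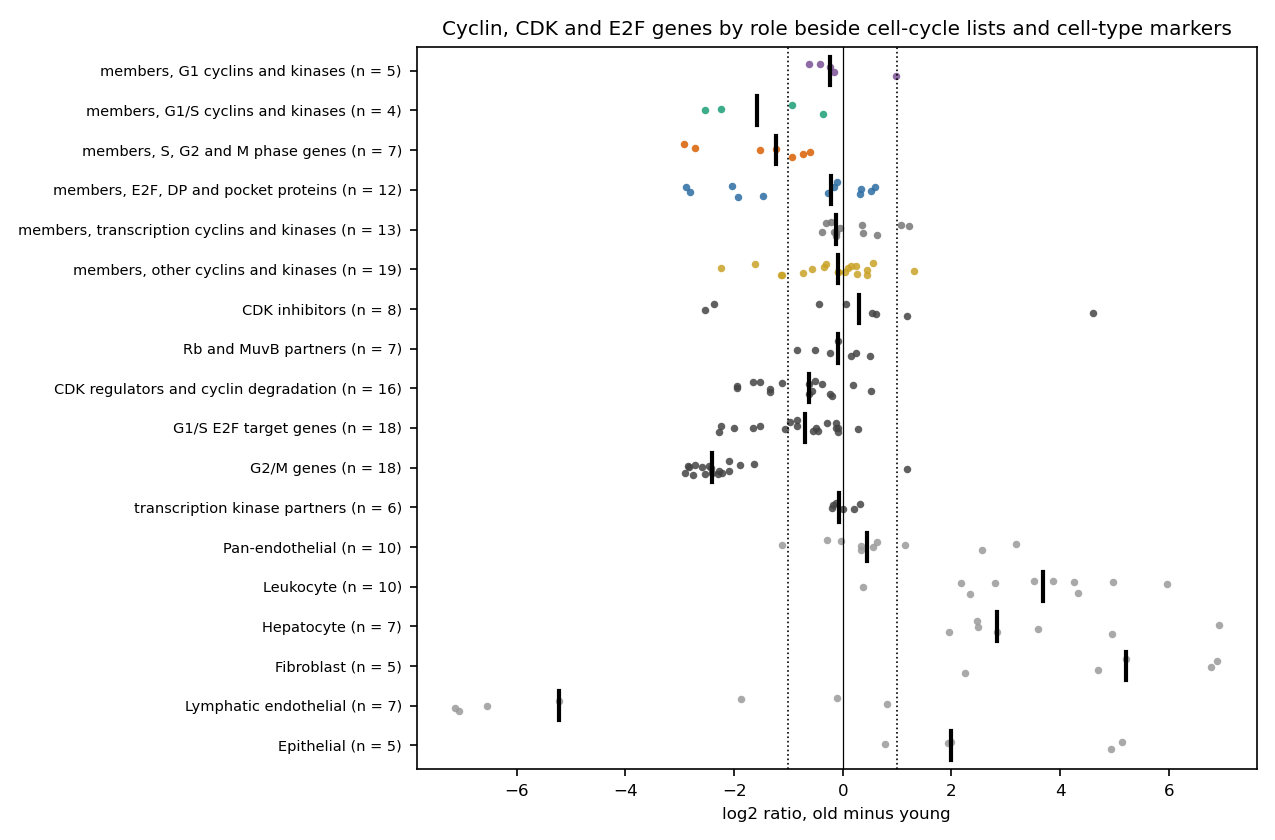
Log2 ratio (old minus young) of each measured gene, for the members by role (coloured), the other cell-cycle lists (dark grey) and the cell-type marker lists (light grey); black bars are medians, dotted lines mark 2-fold, and the vertical scatter only separates points. The G2/M list lies farthest left of the cell-cycle lists (median -2.41), and leukocyte, hepatocyte, fibroblast and epithelial markers lie to the right.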

How the data were processed

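The deposited table holds linear MAS5 intensity values, 1 per probe set and array. GCOS 1.4 and MAS5 are named in the submitters' processing notes, and the trimmed mean (2% cut at each end) was 500 on both arrays. Of 45101 probe sets, 64 controls were left out. Genes came from the platform annotation of 2016, in which 34958 probe sets have 1 symbol, 932 several and 9211 none. All 66 member genes matched RefSeq by Entrez identifier.

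The old array was multiplied by 1.05 and the young by 0.956, which brought the median log2 ratio to 0 among probe sets brighter than each array's median (-0.13 in the deposited intensity values). Their number, 1 per group, limits the precision. A rule set which members had to be named: the 8 largest ratios each way, the 4 largest lower bounds each way, and a fixed set of core genes. Other members are named by role, several of them with both signals. From each pathway list up to 4 genes with the largest ratios were named. Cenpa and Cdkn1a were named in addition, after their values were seen. The members and lists were chosen with earlier results of these data known. The calculation was tested on simulated data with changes planted only in bright genes, so recovery of folds near the floor was not checked. Python 3.11.15, numpy 2.4.6, pandas 2.3.3 and statsmodels 0.14.6 were used.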

Additional observations from a re-analysis of the deposited data

How the results depend on the processing

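No paired analysis was possible because there is 1 array per group. The 8 alternatives were the values as deposited, quantile normalization, loess (span 0.4), floors at the 25 and 75 percentiles, an offset of 0.5 times the floor, the mean over probe sets, and leaving out shared-sequence probe sets (_x_at and _s_at). With the higher floor, of 46 measured members 6 lay on the young side of 2-fold and 1 on the old, where 7.68% and 12.5% of all genes did. The members' median became -0.35 for the deposited values and -0.32 for quantile normalization, and both settings moved the median of all genes to -0.09. Under the settings other than the higher floor, 2 to 4 members lay past 2-fold on the old side and 13 to 17 on the young side. Of all genes, 14.4% to 18.7% lay past it on the old side and 10.6% to 13.3% on the young. The count of 17 came from the values as deposited, where the young share was 13.3%. Of 36 named members, 24 were classed the same under every alternative that measured them, and many of these were within 2-fold throughout. Of the named members past 2-fold, 8 lost the call under at least 1 alternative. Those that kept it were Ccna2, Ccnb2, Ccnl1, Cdk1, Cdk18, E2f6, Tfdp1 and, where measured, Cdk20. Another 4, within 2-fold before, gained a call, and 0 called values changed sign. Cdk20 was not measured with the higher floor or without shared-sequence probe sets. Ccne1 (-0.38), Ccne2 (-0.50), E2f1 (-0.11), E2f2 (-0.09) and E2f8 (-0.16) were under 2-fold with the higher floor, where their old-array signals lie below it. Cdk12 was under 2-fold in 4 alternatives, Ccnf (-0.81) and Cdkl2 (-0.93) as means over probe sets. Cdk2 and Wee1 passed 2-fold on the values as deposited (-1.06 and -1.07), Ccnd3 with loess and Cdc25c with quantile normalization (-1.03). Cdk14 and Ccnjl, outside the named members, were under 2-fold with the offset. These genes, and also Ccnf and Cdkl2, were below the higher floor on both arrays. With the offset, Ccnf (-1.40) and Cdkl2 (-1.36) stayed past 2-fold. Signals near the floor limit the folds of E2f2, E2f8, Ccnf, Cdc25c and Cdk20.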
